A study of Caenorhabditis elegans with 8 samples.

Results

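The difference between the tBOOH responses of *nhr-49*(*nr2041*) and wild-type worms was measured for every gene, whether tBOOH raised or repressed it. RNA-seq libraries of whole L4 *Caenorhabditis elegans* were compared in 4 groups, which were untreated wild-type N2, N2 kept for 4 hr on 7.5 mM tBOOH, untreated *nhr-49*(*nr2041*), and *nhr-49*(*nr2041*) kept for 4 hr on 7.5 mM tBOOH. All groups grew on *Escherichia coli* OP50 and no further agent or allele is named for any of them, and *nr2041* is a null allele that all cells of the mutant carry. Each group has 2 libraries, which the labels number 1 and 3, and all 8 libraries of the series were used. Of 42048 gene symbols counted, 14334 had more than 1 CPM (counts scaled to library size, with TMM factors of edgeR) in at least 2 libraries and were tested. The response of a genotype is the log2 fold change of its treated over its untreated libraries, and the difference of responses is that of *nhr-49* minus that of wild-type. A positive difference thus means a stronger rise in *nhr-49* or, for a repressed gene, a weaker fall. The responses of wild-type and *nhr-49* share no library.

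tBOOH (tert-butyl hydroperoxide) is an organic peroxide that oxidizes thiols and lipids. Worms answer oxidants by raising glutathione S-transferases, glutathione synthesis enzymes and other detoxification genes, much of it through SKN-1, the worm ortholog of the Nrf transcription factors. The paper describes the response to tBOOH itself as largely independent of SKN-1. NHR-49 is a nuclear hormone receptor that controls fatty acid desaturation and beta-oxidation and raises genes of the fasting response. Stress also lowers genes of growth, and at the L4 stage these include genes for cuticle collagens and molting, whose expression cycles within each larval stage.

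Library totals ranged from 2157766 to 5852727 counts, and both untreated *nhr-49* libraries, at 2157766 and 2634620 counts, were the smallest. Groups are called at the floor where both libraries have 3 counts or fewer, which stand for 0.508 to 1.55 CPM and cover counting error only. Replicates spread further apart in *nhr-49*, where the common dispersion of edgeR was 0.215, against 0.0528 in wild-type, and the 2 untreated *nhr-49* libraries were over 2-fold apart for 5166 genes. Reads stayed on *nhr-49* itself in the mutant, at 21.2 and 36.1 CPM untreated and 32.7 and 27.7 CPM with tBOOH for replicates 1 and 3, the order used below. In wild-type it was at 68.5 and 66.1 CPM untreated and 110 and 108 CPM treated. Markers of germline and yolk did not bear out the labelled L4 stage alike in all libraries. RNA of yolk genes was high in 6 libraries, unlike the L4 label, and low in the *nhr-49* libraries of replicate 3. The summed level of the 6 yolk genes, known from adult hermaphrodites, was 833 and 3560 CPM in these libraries, untreated and treated, against 23570 to 85700 CPM in the other 6 libraries, and that of 13 oocyte and eggshell genes was 610 and 725 CPM against 2686 to 6522 CPM. That of 48 sperm genes was 546 and 982 CPM against 1686 to 2474 CPM. In bulk RNA, fewer cells of a type and less RNA per cell cannot be told apart. The study calls its replicates biological, and the labels do not name a culture or day for any of them.

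No gene called with tBOOH in both genotypes by the exact test of edgeR was called in opposite directions. In wild-type worms 316 genes rose, or 2.2% of the genes tested, and 450 fell, or 3.14%, in the exact test of edgeR with an adjusted p under 0.05. In *nhr-49* worms 390 rose, or 2.72%, and 274 fell, or 1.91%. Of these, 172 rose in both genotypes, which is 54.4% of the wild-type list and 44.1% of the *nhr-49* list, and 154 fell in both, which is 34.2% and 56.2%. DESeq2 called 1 gene in opposite directions, C38C6.8. Thus 296 genes were called lower in wild-type alone, 120 lower in *nhr-49* alone, 144 higher in wild-type alone, and 218 higher in *nhr-49* alone. These counts do not show that the responses differ, which is tested below, and they rest on 1 shared estimate of the spread. With limma-voom and a weight for each library, which were 1.35 to 1.79 in wild-type and 0.57 to 0.74 in *nhr-49*, 816 genes rose and 1002 fell in wild-type against 22 and 8 in *nhr-49*. Over the 7984 genes with a mean of at least 10 CPM, Pearson's r between the 2 responses was 0.726 across genes, which are not independent replicates. The plot of both responses shows where they part: light blue points, called lower in wild-type alone, lie above the diagonal at the lower left.

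**Figure D1:**
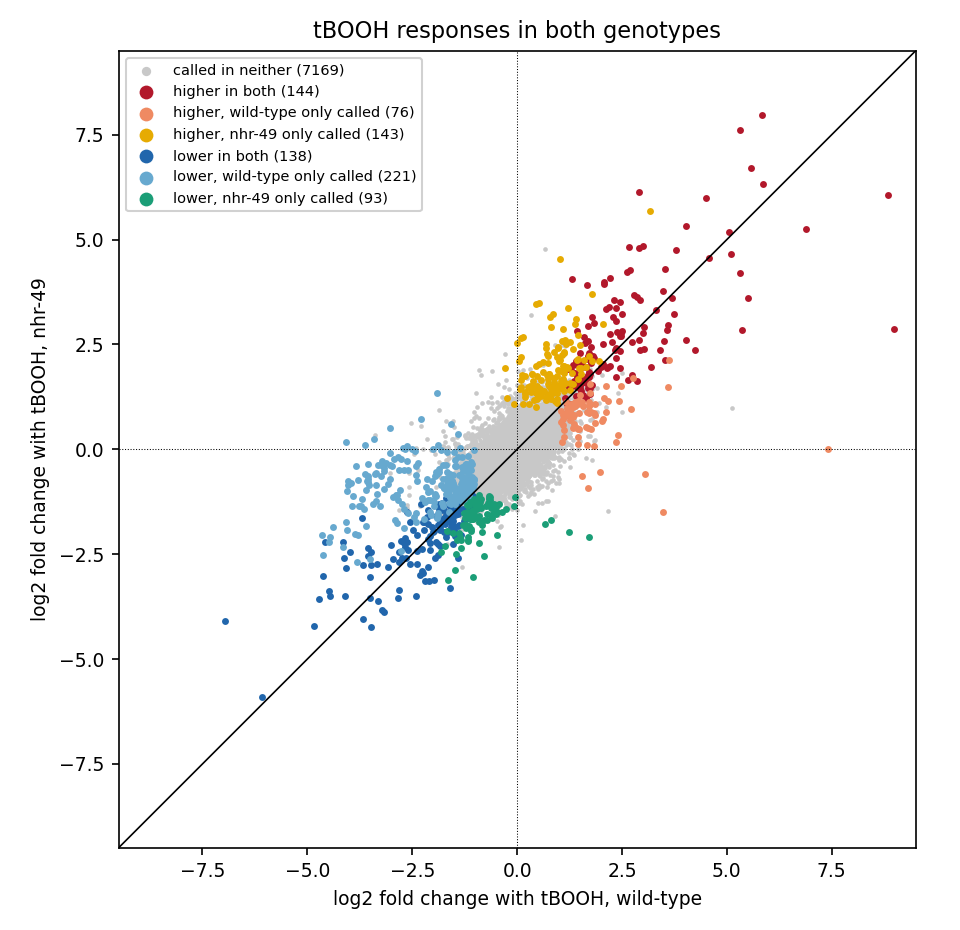
Log2 fold change with tBOOH in wild-type (x axis) and in *nhr-49* (y axis) for the 7984 genes with a mean of at least 10 CPM over the 8 libraries, colored by the genotype in which the exact test of edgeR called them, with the number of genes in each class. The diagonal marks equal responses, and 2 genes lie outside the axes. No colored point is called in opposite directions.

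Genes that fell in wild-type had a less negative median in *nhr-49*, by a gap wider than that of the reverse choice in both replicates, and genes that rose in *nhr-49* had a lower median in wild-type, by a gap that was clearly wider in replicate 3 alone. The 450 genes that fell in wild-type had a median log2 fold change of −2.17 there and −1.26 in *nhr-49*, where replicates 1 and 3 alone gave −1.44 and −1.25, against −2.08 and −2.24 in wild-type. Of the 450, 281 were below −1 in *nhr-49* and 21 were above 0. The 274 genes that fell in *nhr-49* had a median of −1.94 there and −1.53 in wild-type, and 6 were above 0 in wild-type. Replicates 1 and 3 alone gave −1.54 and −2.21 in *nhr-49* and −1.32 and −1.77 in wild-type for these genes. The 390 genes that rose in *nhr-49* had a median of 2.38 there and 1.49 in wild-type, and 379 were above 0 in wild-type. The medians of these 390 genes were 1.92 and 1.32 in replicate 1 alone and 2.80 and 1.55 in replicate 3 alone. The 316 genes that rose in wild-type had a median of 2.22 there and 1.85 in *nhr-49*, and 304 were above 0 in *nhr-49*. For the 316 genes the 2 medians were 2.10 and 1.56 in replicate 1 alone, a gap close to that of the 390 genes, and 2.10 and 1.98 in replicate 3 alone. A list chosen for its value in 1 genotype tends to have the smaller median in the other by that choice alone, so that both choices are given. Genes called in both genotypes had close medians, at −2.11 in wild-type and −2.16 in *nhr-49* for the 154 that fell, and at 2.37 and 2.65 for the 172 that rose. With genes at the floor set at their bound, the medians of the 390 genes were 2.10 in *nhr-49* and 1.44 in wild-type, and those of the 450 were −2.13 in wild-type and −1.23 in *nhr-49*.

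**Figure D2:**
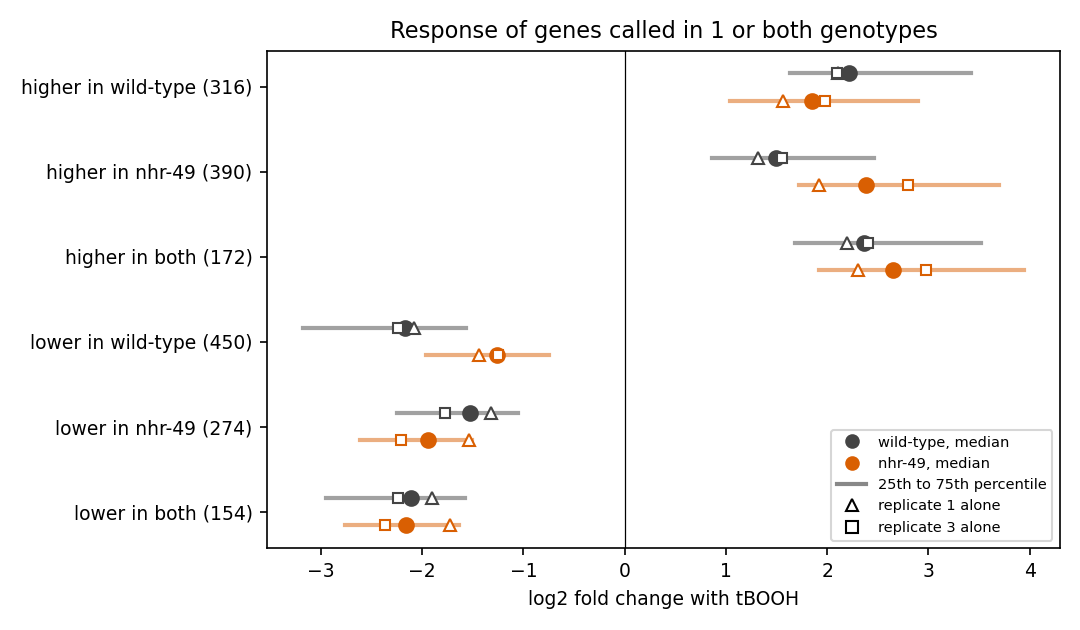
Median log2 fold change with tBOOH (x axis) of the genes called higher or lower in wild-type, in *nhr-49*, or in both (y axis, with the number of genes), in wild-type (gray) and *nhr-49* (orange). Bars span the 25th to 75th percentile of genes, and open symbols are the medians in replicate 1 or 3 alone. The 450 genes lower in wild-type lie at −2.17 in wild-type and −1.26 in *nhr-49*.

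To read the responses in libraries that were not used for the choice, genes with a mean of at least 10 CPM that moved by more than 1 log2 unit in 1 replicate of 1 genotype were followed in the other replicate and genotype, a choice made after the data were seen. The 951 genes lower in replicate 1 of wild-type had a median of −0.99 in replicate 3 of wild-type, of −1.01 in replicate 1 of *nhr-49*, and of −0.35 in replicate 3 of *nhr-49*. The 695 genes lower in replicate 3 of wild-type had medians of −1.34 in replicate 1 of wild-type and of −1.06 and −1.16 in *nhr-49*. Repression read this way was weaker in *nhr-49* than in the other wild-type replicate, except in replicate 1 of *nhr-49* for the 951 genes. The 666 genes lower in replicate 1 of *nhr-49* had a median of −0.78 in replicate 3 of *nhr-49* and of −1.54 and −1.20 in wild-type, and the 954 lower in replicate 3 had −0.64 in replicate 1 of *nhr-49* and −0.59 and −0.82 in wild-type. For induced genes the 4 choices shared no order. The 697 genes higher in replicate 1 of wild-type had medians of 0.99 in replicate 3 of wild-type and 0.93 and 0.79 in *nhr-49*, whereas the 569 higher in replicate 3 had 1.17 in replicate 1 of wild-type and 0.97 and 1.44 in *nhr-49*. The 657 genes higher in replicate 1 of *nhr-49* had a median of 1.17 in replicate 3 of *nhr-49*, above the 0.98 and 0.87 of wild-type. The 1203 genes higher in replicate 3 of *nhr-49* had a median of only 0.50 in replicate 1 of *nhr-49*, close to the 0.33 and 0.62 of wild-type.

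The difference of responses itself was tested for each gene with the quasi-likelihood test of edgeR over all 8 libraries. No gene, or 0%, had an adjusted p under 0.05 (Benjamini-Hochberg), and the lowest adjusted p was 0.185, that of *tag-38*. A gene without counts in a whole genotype, such as *fmo-2*, has no finite difference there and was not called for that reason. At an unadjusted p under 0.05, 373 genes, or 2.6%, had a positive difference and 150, or 1.05%, a negative one, together 3.65% of the genes tested. This is fewer than the 5% that would pass this p if no gene differed and p were evenly spread, so that counts at this unadjusted p, here and for the lists below, describe the fit and call no gene different. The median standard error of the difference over the 7984 genes with at least 10 CPM was 0.614 in the fit of DESeq2. The call depended on the test. The likelihood ratio test of edgeR called 6 positive and 5 negative differences, DESeq2 called 10 and 6, and the quasi-likelihood test without the filter on low counts called 97 and 16. The fits with limma-voom and library weights, another normalization, a stricter filter, thinned counts, or a replicate block called 0, and the lowest adjusted p over these 5 ranged from 0.179 to 0.681. The likelihood ratio test, DESeq2 and the unfiltered fit called 10 genes in common, which were *tag-38*, C38C6.8, *acs-7*, *cyp-37B1* and *cyp-33B1* with negative differences, and *gst-5*, *dod-17*, *dod-24*, C32H11.4 and C31C9.2 with positive ones.

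Genes chosen for a large difference tend by that choice to have responses of opposite sign, so that the split of these 373 and 150 genes by sign is a description. Among the 373 with a positive difference, the fitted response was below 0 in wild-type and above 0 in *nhr-49* for 194 of them, below 0 in both for 95, and above 0 in both for 84, with medians of −1.02 in wild-type and 1.04 in *nhr-49*. Of the 150 negative differences, 111 were above 0 in wild-type and below 0 in *nhr-49*, with medians of 1.02 and −0.86. The genotypes were further apart after tBOOH than before it for 229 of the 373 genes and for 67 of the 150, whereas 83 of the 150 were further apart before treatment. A group at the floor, in which the fitted value depends on the prior count, occurred in 106 of the 373 and 41 of the 150. Over the 7984 genes with at least 10 CPM, the differences of the 2 replicates, each taken alone, had the same sign for 4957, or 62.1%, with a Pearson's r of 0.390 across genes. Replicates 1 and 3 gave an r of 0.768 for the wild-type response and of 0.514 for the *nhr-49* response. The 450 genes that fell in wild-type included 103 of the positive and 2 of the negative differences, but as they were chosen on libraries that enter the difference, these 2 counts are no test.

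Of the genes with a mean of at least 10 CPM, no group at the floor and the same sign in both replicates, the 10 positive differences with the smallest p included those of *gst-5*, *dod-17*, *dod-24* and *tatn-1*. The glutathione S-transferase gene *gst-5* (WBGene00001753, on chromosome II in the WBcel235 annotation), which overlaps *nos-1*, was at 79.8 and 55.2 CPM in untreated and 157 and 178 CPM in treated wild-type worms, and at 31.1 and 35.7 CPM in untreated and 435 and 689 CPM in treated *nhr-49* worms. It rose in both genotypes, by 1.31 log2 units in wild-type and 4.07 in *nhr-49*, a difference of 2.76 ± 0.54 (SE of DESeq2). Both *nhr-49* libraries thus lay below both wild-type libraries before tBOOH and above them after it. The adjusted p of this difference was 1 in the quasi-likelihood test and 0.0011 in DESeq2, and it ranged from 6.70e-06 in the unfiltered fit to 1 over the alternatives. *dod-17* and *dod-24*, named for being downstream of the FOXO factor DAF-16, also started lower in *nhr-49*. *dod-24* was at 33.6 and 42.9 CPM without and 38.6 and 66.1 CPM with tBOOH in wild-type, and at 4.66 and 8.56 CPM without and 64.9 and 85.3 CPM with tBOOH in *nhr-49*, where it rose by 3.47 log2 units (difference 3.02 ± 0.67). *dod-17* went from 26.0 and 34.3 to 62.3 and 47.2 CPM in wild-type and from 8.29 and 8.18 to 80.6 and 75.1 CPM in *nhr-49* (difference 2.38 ± 0.57). Neither *dod* gene was called with tBOOH in wild-type, and the treated libraries of the genotypes overlapped for *dod-24*. C32H11.4 rose in both genotypes, from 9.66 and 7.47 to 61.8 and 66.9 CPM in wild-type and from 0.518 and 3.35 to 154 and 146 CPM in *nhr-49*, and its difference was 5.25 from replicate 1 and 2.26 from replicate 3 taken alone.

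The other 6 of these 10 genes had a response below 0 in wild-type, which passed the test for all but C29F3.7, and none of the 6 was called in *nhr-49*. *tatn-1* (WBGene00009628, chromosome X), which encodes tyrosine aminotransferase, was at 571 and 475 CPM untreated and 97.1 and 107 CPM treated in wild-type, and at 379 and 320 CPM untreated and 334 and 222 CPM treated in *nhr-49*. Its response was −2.36 in wild-type, where it fell, and −0.33 in *nhr-49*, where it was not called (difference 2.03 ± 0.46). *bcat-1* (WBGene00001149, chromosome X), which encodes a branched-chain aminotransferase, fell from 809 and 655 to 265 and 290 CPM in wild-type and was at 593 and 405 CPM without and 564 and 719 CPM with tBOOH in *nhr-49* (difference 1.76 ± 0.47). In both of these genes the treated *nhr-49* libraries lay above the treated wild-type libraries, and both untreated *nhr-49* libraries lay below the untreated wild-type ones. R09B3.3 fell from 426 and 500 to 130 and 133 CPM in wild-type and was between 473 and 549 CPM in all 4 *nhr-49* libraries. The cytochrome P450 gene *cyp-13A5* (WBGene00011672, chromosome II) fell in wild-type, from 123 and 83.5 to 34 and 34.7 CPM, and was at 109 and 107 CPM without and 121 and 207 CPM with tBOOH in *nhr-49*. R08E5.3 fell by 2.87 log2 units in wild-type and had a response of −1.08 in *nhr-49* that did not pass the test. C29F3.7 was called in neither genotype, with a response of −0.85 in wild-type against 1.10 in *nhr-49*.

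The 10 negative differences with the smallest p included those of *tag-38*, *acs-7*, *cyp-37B1* and *acox-1*. *tag-38* had the lowest adjusted p of all genes, and it stood out before treatment. It was at 4.14 and 5.17 CPM in untreated wild-type and rose to 45.5 and 32.4 CPM with tBOOH, whereas in *nhr-49* it was at 304 and 399 CPM untreated and 244 and 223 CPM treated. The wild-type response was 3.05, the *nhr-49* response −0.59, and the difference −3.65 ± 0.54, or −3.74 and −3.46 in replicates 1 and 3 alone. Its adjusted p over the alternatives ranged from 1.07e-08 in the unfiltered fit to 0.681 in thinned counts. *acs-7* (WBGene00007228, chromosome II), which encodes an acyl-CoA synthetase and overlaps C01G6.9, rose from 12.7 and 19.2 to 43.3 and 60.1 CPM in wild-type and was at 16.1 and 26.0 CPM without and 10.7 and 11.4 CPM with tBOOH in *nhr-49* (difference −2.63 ± 0.66). Thus the genotypes overlapped before tBOOH and separated after it. *cyp-37B1* (WBGene00009226, chromosome V), a cytochrome P450 gene that overlaps F28G4.2, rose from 5.29 and 4.22 to 45.9 and 60.2 CPM in wild-type and was at 9.84 and 1.49 CPM without and 3.04 and 0.832 CPM with tBOOH in *nhr-49* (difference −4.96 ± 1.07). F58F9.7 rose from 36.8 and 44.8 to 116 and 124 CPM in wild-type and was at 18.7 and 20.2 CPM with tBOOH in *nhr-49*, below both untreated libraries at 21.2 and 38.7 CPM.

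*acox-1* and *gstk-1* had the more negative response in *nhr-49*. *acox-1*, which encodes an acyl-CoA oxidase of peroxisomal beta-oxidation, was at 83.3 and 83.2 CPM without and 46.0 and 50.2 CPM with tBOOH in wild-type, where it was not called. In *nhr-49* it fell from 61.1 and 87.8 to 12.4 and 13.3 CPM, a log2 fold change of −2.53 (difference −1.74 ± 0.51). *gstk-1* (WBGene00014251, chromosome II), a kappa-class glutathione S-transferase gene, was at 35.4 and 36.2 CPM without and 16.6 and 18.2 CPM with tBOOH in wild-type. In *nhr-49* it fell from 24.3 and 39.8 to 4.44 and 3.33 CPM (difference −2.0 ± 0.65). The untreated libraries of the genotypes overlapped in both genes, and the treated *nhr-49* libraries were below all others. *oac-6*, named as an O-acyltransferase homolog, rose from 4.83 and 6.32 to 36.5 and 22.5 CPM in wild-type and was between 25.3 and 36.9 CPM in all 4 *nhr-49* libraries. C38C6.8, the snoRNA gene Y24D9A.9, which overlaps *rpl-7A*, and ZC155.8 fell in *nhr-49*, from untreated levels above those of the same replicate of wild-type. Their differences were −4.83, −4.12 and −3.04 in replicate 1 alone and −2.15, −1.77 and −1.51 in replicate 3 alone, so that replicate 1 carried the larger part. In the plot of these 20 genes by library, the 2 symbols of each group lie close together for most genes, and *cyp-37B1*, C32H11.4, C38C6.8, ZC155.8 and Y24D9A.9 have the widest gaps.

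**Figure D3:**
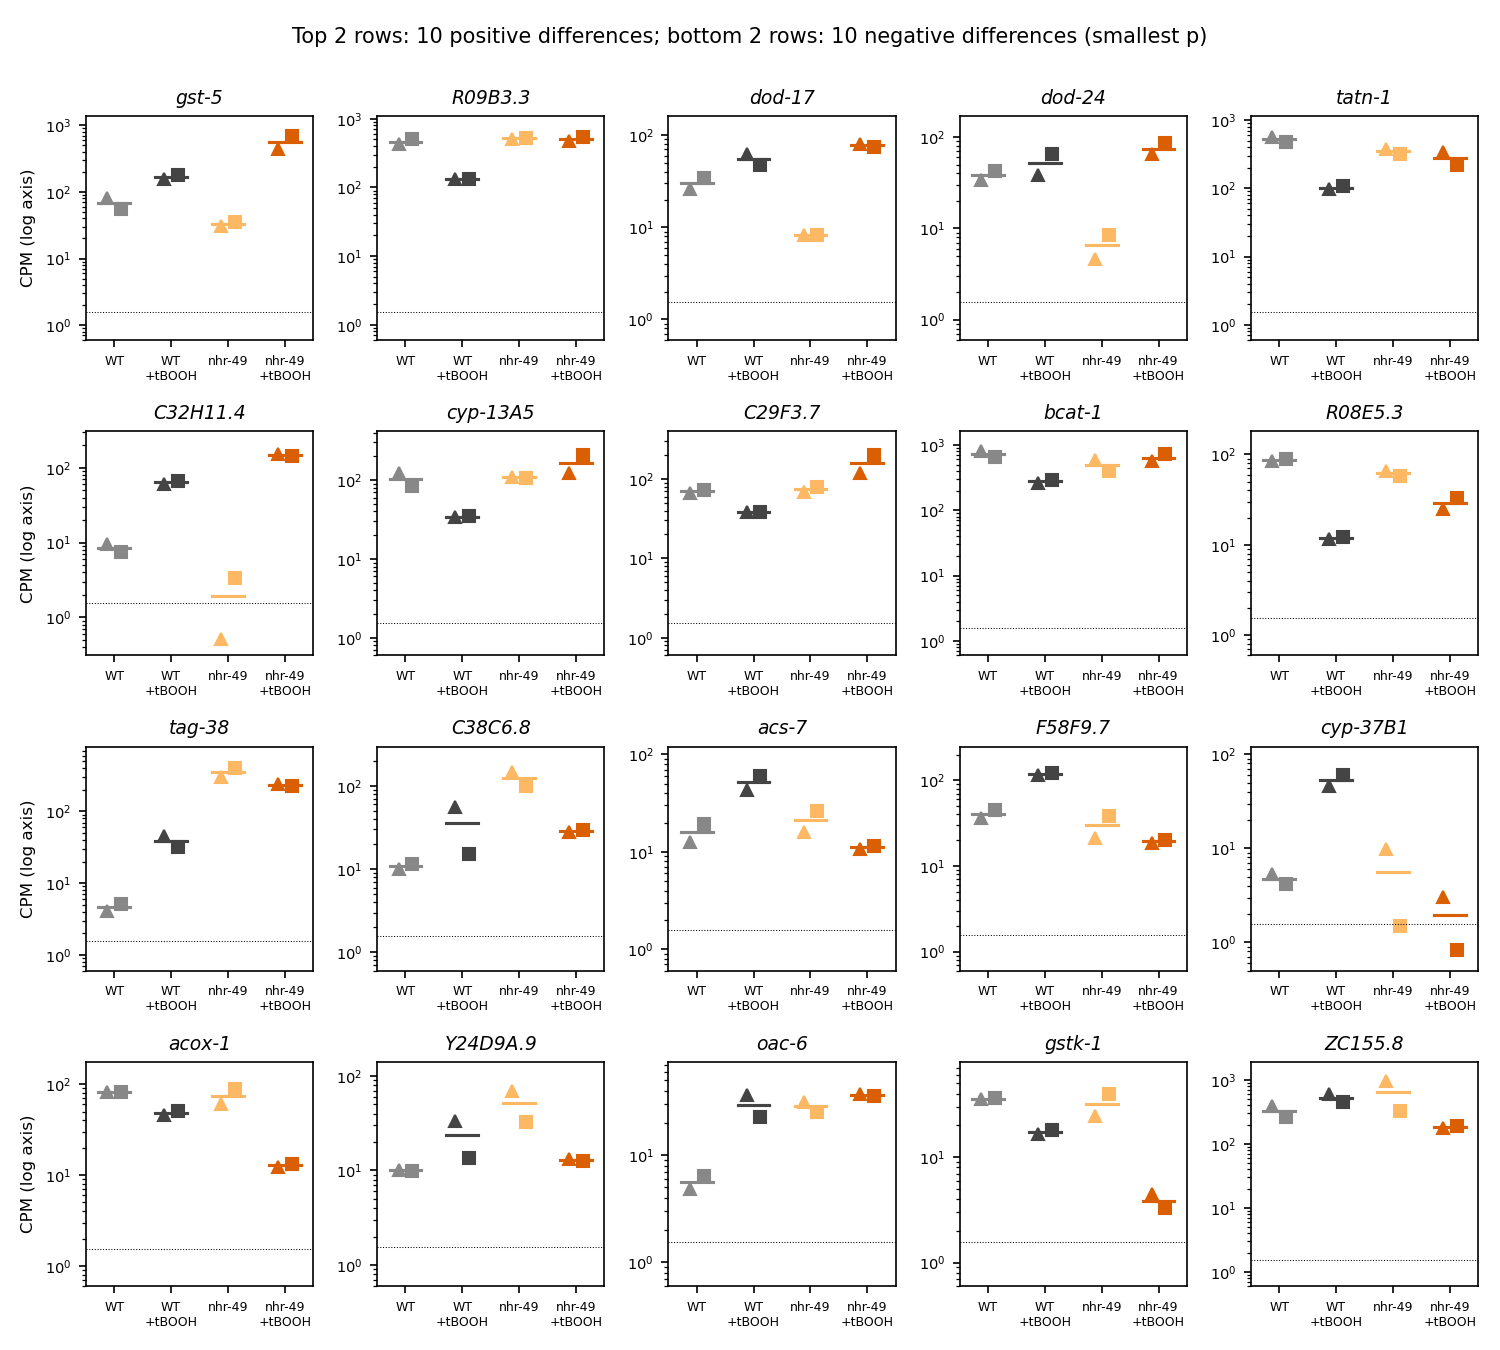
Level in CPM (y axis, log scale) of the 10 genes with positive (top 2 rows) and the 10 with negative (bottom 2 rows) differences of responses that had the smallest p, in untreated and tBOOH-treated wild-type (gray) and *nhr-49* (orange) worms (x axis). Triangles are replicate 1, squares replicate 3, lines the group mean (n = 2), and the dotted line is the highest library floor of 1.55 CPM. *gst-5* runs from 31.1 and 35.7 to 435 and 689 CPM in *nhr-49*, and *tag-38* is at 223 CPM or above in all 4 *nhr-49* libraries.

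The genes with the strongest falls in 1 genotype all fell in the other too. Among genes called lower with at least 20 counts in each untreated library, *pgp-1* (WBGene00003995, chromosome IV), which encodes an ABC transporter of the P-glycoprotein family, was at 1483 and 923 CPM in untreated and 14.7 and 4.36 CPM in treated wild-type worms. In *nhr-49* it was at 1245 and 1145 CPM untreated and 88.0 and 52.9 CPM treated. The genotypes overlapped before tBOOH, and both treated *nhr-49* libraries lay above both treated wild-type libraries. The wild-type response of −6.97 and the *nhr-49* response of −4.08 gave a difference of 2.88 ± 0.73, which was 2.82 and 3.26 in replicates 1 and 3 alone and had an adjusted p of 1 in the quasi-likelihood test of edgeR, of 0.0401 in DESeq2, and from 1.58e-07 in the unfiltered fit to 1 over the alternatives. In wild-type H25K10.1 had 43 and 35 counts before treatment and 0 in both treated libraries, a log2 fold change of −3.95 or below, and 15 and 15 counts without against 5 and 4 with tBOOH in *nhr-49* (−2.70). *spp-23*, a saposin-like gene, went the other way, with 24 and 35 counts without and 0 with tBOOH in *nhr-49*, a log2 fold change of −4.26 or below, and 50 and 74 against 16 and 5 counts in wild-type (−2.78).

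For K09C4.5, R193.2 and *fbn-1* the difference of responses was smaller than its SE. K09C4.5 fell from 44.2 and 43.7 to 0.846 and 0.379 CPM in wild-type and from 40.9 and 81.5 to 1.63 and 0.416 CPM in *nhr-49*, with responses of −6.08 and −5.90. The difference was 0.18 ± 1.03, so that a difference of 1 log2 unit either way is within its error. R193.2 had responses of −4.85 and −4.21 (difference 0.64 ± 0.89), and *fbn-1*, a fibrillin homolog of the extracellular matrix that overlaps *upp-1*, had responses of −3.48 and −4.24 (difference −0.76 ± 0.98). The untreated *nhr-49* libraries of *fbn-1* were far apart, at 233 and 1369 CPM. *lbp-8*, which encodes a fatty acid-binding protein, went from 70 and 66 counts to 3 and 0 with tBOOH in wild-type, and from 5 and 14 counts to 0 in both libraries of *nhr-49*. The *nhr-49* level was lower before tBOOH, so that the fall that could be seen there was limited by the floor, to −2.56 or below, and the fitted difference of −1.50 changed sign in either replicate alone (0.21 and 1.26). Y48E1B.8, which overlaps *clec-145*, had 3 and 30 counts in untreated *nhr-49* worms and 0 or 2 after tBOOH, and its difference of 1.11 had an SE of 2.28.

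**Figure D4:**
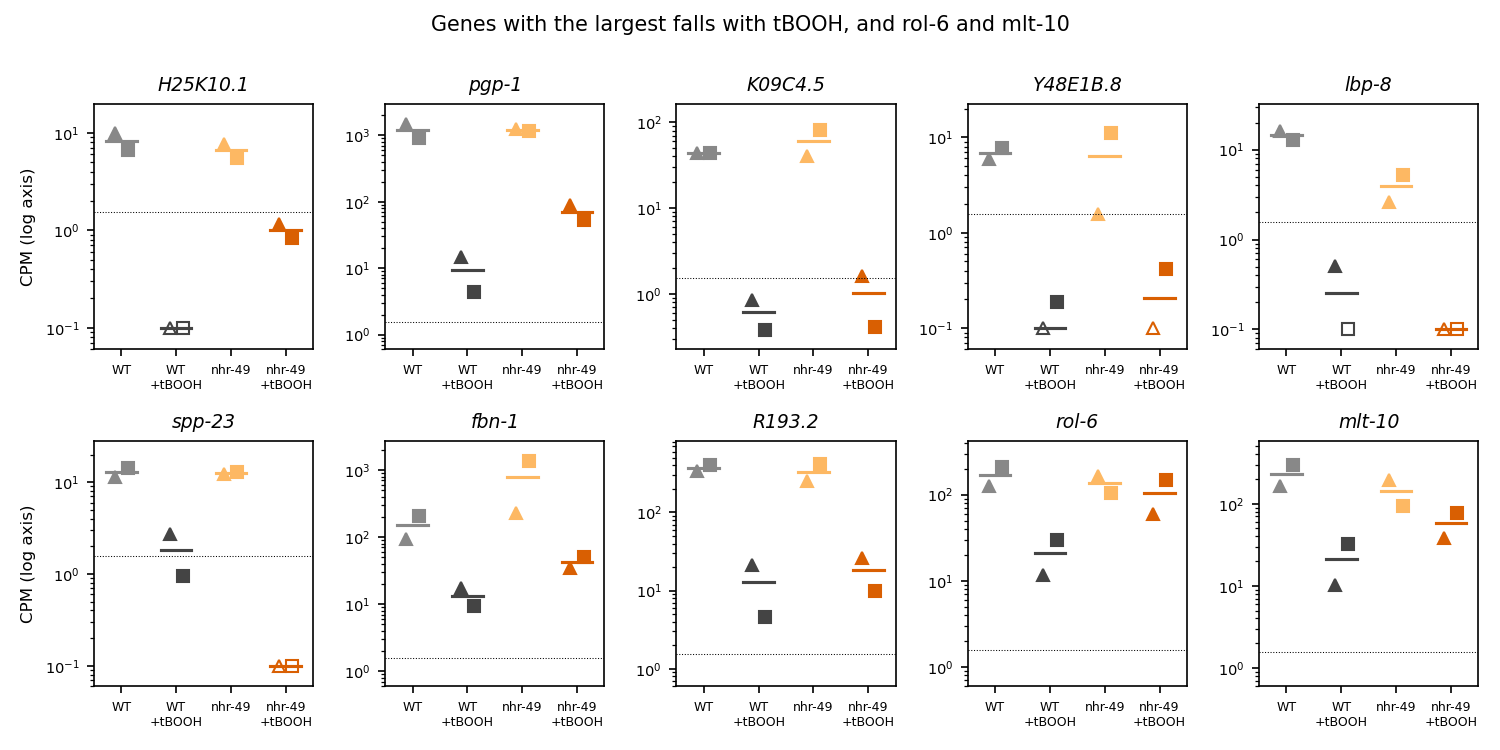
Level in CPM (y axis, log scale) of 8 genes with the largest falls with tBOOH and of the collagen gene *rol-6* and the molting gene *mlt-10* in the 4 groups (x axis, symbols as for the 20 genes by library). Open symbols at 0.1 CPM are libraries with 0 counts, means under 0.1 CPM are drawn there too, and the dotted line is the highest library floor of 1.55 CPM. *pgp-1* reaches 14.7 and 4.36 CPM in treated wild-type and 88.0 and 52.9 CPM in treated *nhr-49* worms.

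More cuticle and molting genes were called lower with tBOOH in wild-type than in *nhr-49*. Of 139 collagen genes tested, 24 fell in wild-type and 1 in *nhr-49*, and none rose, against backgrounds of 3.14% and 1.91% of all genes called lower. The median collagen response was −0.82 for wild-type and −0.07 for *nhr-49*. The difference was above 0 for 115 of the 139, with a median of 0.76 against −0.01 over all genes tested, and 16 had a positive and 0 a negative difference at an unadjusted p under 0.05, or 11.5% and 0% against 2.6% and 1.05% of all genes. In replicates 1 and 3 alone the median difference was 1.29 and 1.52. *rol-6* (WBGene00004397, chromosome II), a cuticle collagen gene, fell in wild-type from 127 and 211 to 11.7 and 30.1 CPM, and was at 166 and 106 CPM without and 59.1 and 149 CPM with tBOOH in *nhr-49* (difference 2.64 ± 0.80). *col-79*, which overlaps *dph-2*, fell in wild-type from 31.5 and 58.6 to 0.846 and 4.55 CPM and was at 14.5 and 10.8 CPM without and 4.2 and 24.1 CPM with tBOOH in *nhr-49*, where replicate 1 was lower and replicate 3 higher after tBOOH. No collagen gene passed the adjusted threshold for the difference with the filter, and 16 did in the unfiltered fit.

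Hedgehog- and patched-related genes, many of which are made by the hypodermis at each molt, had counts in the same order. Of 62 tested, 11 fell in wild-type and 4 in *nhr-49*, and 3 rose in wild-type and 0 in *nhr-49*, with a median response of −1.11 and −0.50. The falls are 17.7% and 6.45% of the list, against 3.14% and 1.91% of all genes, and the rises 4.84% and 0% against 2.2% and 2.72%. At an unadjusted p under 0.05, 10 had a positive difference and 0 a negative one, or 16.1% and 0% against 2.6% and 1.05%. The ground-like gene *grl-15* fell in wild-type from 19.3 and 53.8 to 2.2 and 4.74 CPM, and was at 34.7 and 18.6 CPM without and 11.9 and 50.4 CPM with tBOOH in *nhr-49*, with a difference of 1.53 in replicate 1 and 4.91 in replicate 3. The warthog gene *wrt-2* had responses of −4.05, where it fell, and −1.0 (difference 3.05 ± 0.92). Of 10 molting markers, 4 fell in wild-type and 0 in *nhr-49*, and the median difference was 1.37. *mlt-10*, which overlaps *lips-7*, fell from 166 and 293 to 10.3 and 32.0 CPM in wild-type and was at 193 and 93.0 CPM without and 38.8 and 76.2 CPM with tBOOH in *nhr-49*. *mlt-11*, which encodes a protease inhibitor-like protein, fell from 849 and 2875 to 80.2 and 141 CPM in wild-type and was at 1818 and 2958 CPM without and 361 and 1070 CPM with tBOOH in *nhr-49*.

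These genes cycle with the molt, and their untreated level was not the same in replicates of 1 group. The summed level of the 10 molting markers was 1883 and 5011 CPM in untreated wild-type and 3277 and 5436 CPM in untreated *nhr-49* worms, and 464 and 717 CPM against 958 and 2147 CPM after tBOOH. Summed collagen levels were 56570 and 36910 CPM in untreated and 30810 and 33190 CPM in treated wild-type worms, and 40460 and 16180 CPM in untreated and 41180 and 22610 CPM in treated *nhr-49* worms. The *nhr-49* libraries of replicate 3, which were low in yolk and oocyte RNA, were thus also the lowest in collagen RNA. The part of stage in the differences of the collagen, hedgehog-related and molting genes was not tested. Intestinal and body wall muscle markers had median differences of 0.03 and −0.02. The summed level of the 4 intestinal markers was 3413 and 2977 CPM without and 1121 and 723 CPM with tBOOH in wild-type, and 3476 and 3231 CPM without and 1661 and 877 CPM with tBOOH in *nhr-49*. Of these 4 markers, 2 were called lower for *nhr-49* against 1 for wild-type. *act-5*, the actin of intestinal microvilli, fell by 2.76 log2 units in wild-type and fell by 2.18 in *nhr-49*. *ges-1* went the other way, with a difference of −0.58. Its response was −1.22 for *nhr-49*, where it fell, against an uncalled −0.64 for wild-type. The 4 muscle markers had median responses of −0.55 and −0.54.

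Cytosolic ribosomal protein genes had a small difference that was close in both replicates. Of 79 tested, 2 fell in wild-type and 0 in *nhr-49*, shares of 2.53% and 0% against 3.14% and 1.91% of all genes, so that calls were no more frequent than over all genes. The median response was −0.72 and −0.18. The difference was above 0 for 71 of the 79, with a median of 0.60, of 0.55 and 0.61 in replicates 1 and 3 alone, and of 0.56 to 0.64 over the other normalization, the thinned counts and the other fits. At an unadjusted p under 0.05, 15 had a positive difference and 0 a negative one, or 19% and 0% against 2.6% and 1.05%. *rpl-6* was at 6490 and 6614 CPM without and 3434 and 4036 CPM with tBOOH in wild-type, and at 4535 and 3969 CPM without and 4738 and 4338 CPM with tBOOH in *nhr-49*. *rpl-21* was at 3210 and 2940 CPM without and 1801 and 2022 CPM with tBOOH in wild-type, and between 1615 and 2162 CPM in all 4 *nhr-49* libraries. For both genes the untreated *nhr-49* libraries were below the untreated wild-type ones, and the treated libraries of *nhr-49* above those of wild-type. Together these genes made up 112900 and 108300 CPM in untreated and 64120 and 72730 CPM in treated wild-type worms, and 92150 and 93370 CPM in untreated and 80100 and 89740 CPM in treated *nhr-49* worms. Proteasome genes, by contrast, had a median difference of 0.14. Of 32 tested, 0 were called in either genotype, which is near the 1.91% to 3.14% of all genes called in a direction.

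Glutathione S-transferase genes had a positive median difference, and 11 of them rose in both genotypes. Of 39 tested, 14 rose in wild-type and 17 in *nhr-49*, against backgrounds of 2.2% and 2.72%, and 5 and 4 fell, against 3.14% and 1.91%. The median response was 1.13 in wild-type against 1.8 in *nhr-49*, and the median difference was 1.04, or 0.57 and 0.92 in replicates 1 and 3 alone and 0.50 in thinned counts. The difference was above 0 for 27 of the 39, and 6 had a positive and 0 a negative difference at an unadjusted p under 0.05, or 15.4% and 0% against 2.6% and 1.05%. Their summed level was 794 and 745 CPM in untreated and 1354 and 1403 CPM in treated wild-type worms, and 802 and 834 CPM in untreated and 2395 and 3607 CPM in treated *nhr-49* worms. The untreated levels of the genotypes were close, and the treated *nhr-49* libraries were above those of wild-type. *gst-1*, a further member, was at 213 and 217 CPM without and 356 and 372 CPM with tBOOH in wild-type, where it was not called, and rose from 212 and 196 to 612 and 809 CPM in *nhr-49* (difference 1.04 ± 0.42). The members share sequence, and how reads common to them were counted is not stated.

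Other stress enzymes were mixed. Of 30 redox enzyme genes, 3 rose and 1 fell in wild-type, 3 rose and 0 fell in *nhr-49*, and 4 had a positive and 0 a negative difference at an unadjusted p under 0.05. The rises are 10% of the list in each genotype, against 2.2% and 2.72% of all genes, the falls 3.33% and 0% against 3.14% and 1.91%, and the positive differences 13.3% against 2.6%. The median difference had no stable sign, at −0.08 with all libraries, 0.12 and 0.11 in replicates 1 and 3 alone, and 0.06 with limma-voom. *prdx-2*, the main cytosolic peroxiredoxin gene, was at 292 and 330 CPM without and 168 and 223 CPM with tBOOH in wild-type, and at 247 and 214 CPM without and 308 and 366 CPM with tBOOH in *nhr-49* (difference 1.22 ± 0.44), and was called in neither. *msra-1*, which encodes a methionine sulfoxide reductase and overlaps *insc-1*, fell in wild-type from 317 and 319 to 128 and 120 CPM and was between 116 and 170 CPM in all 4 *nhr-49* libraries. Of 16 heat shock protein genes, 1 rose in wild-type and 3 in *nhr-49*, and 1 fell in each, or 6.25% and 18.8% higher against 2.2% and 2.72% of all genes. Their median difference was 0.67, and it was above 0 for 15 of the 16. The median response was below 0 for each genotype, at −0.39 for wild-type against −0.03 for *nhr-49*. The positive median difference thus does not show stronger induction of the list. The summed wild-type level went from 12460 and 11860 to 7900 and 7489 CPM with tBOOH. That of *nhr-49* went from 12510 and 11390 to 9839 and 8870 CPM. *hsp-70*, which overlaps *uggt-2*, had 9 and 7 counts in untreated and 21 in each treated wild-type library, and went from 1 and 1 to 26 and 51 counts in *nhr-49*, where it rose at least 6.25-fold. *hsp-4*, the chaperone BiP of the endoplasmic reticulum, was at 498 and 415 CPM without and 335 and 413 CPM with tBOOH in wild-type, and at 490 and 353 CPM without and 503 and 755 CPM with tBOOH in *nhr-49* (difference 0.86 ± 0.50).

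Cytochrome P450 genes rose and fell in both genotypes, and none passed the adjusted threshold for the difference. Of 66 tested, 9 rose and 10 fell in wild-type and 6 rose and 6 fell in *nhr-49*, and at an unadjusted p under 0.05, 4 had a positive and 5 a negative difference, or 6.06% and 7.58% against 2.6% and 1.05% of all genes. The rises are 13.6% and 9.09% of the list against 2.2% and 2.72%, and the falls 15.2% and 9.09% against 3.14% and 1.91%. In wild-type *cyp-33B1* rose at least 192-fold, from 2 and 0 to 392 and 931 counts, and in *nhr-49* it went from 8 and 9 to 65 and 189 counts, where it rose by 2.87 log2 units. The wild-type and *nhr-49* levels thus changed order, from 0.460 and 0 against 4.14 and 3.35 CPM to 66.3 and 176 against 15.2 and 39.3 CPM. Of 58 genes for UDP-glucuronosyltransferases, which conjugate lipophilic compounds, 10 fell in wild-type and 11 in *nhr-49*, 9 of them in both, against backgrounds of 3.14% and 1.91%, and 3 and 1 rose. Their median difference was −0.01, or 0.24 and −0.21 in replicates 1 and 3 alone. *ugt-18* rose in both genotypes, from 3 and 3 to 175 and 128 counts in wild-type, at least 42.6-fold, and from 33 and 44 to 424 and 688 counts in *nhr-49*, from a higher untreated level. Of 53 ABC transporter genes, 3 rose and 3 fell in wild-type, all of them also called in *nhr-49*, where 5 rose and 5 fell. Each direction thus held 5.66% of the list in wild-type and 9.43% in *nhr-49*. Over all genes, 2.2% and 2.72% were called higher and 3.14% and 1.91% lower. Of 29 short-chain dehydrogenase genes, 1 rose in each genotype, or 3.45% against 2.2% and 2.72% of all genes. In each genotype 2 fell, or 6.9% against 3.14% and 1.91%. *dhs-8* went from 22 and 11 to 39 and 41 counts in wild-type, where it was not called, and rose in *nhr-49* from 1 and 6 to 149 and 170 counts.

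Fatty acid metabolism, the pathway best known for control by NHR-49, had a negative median difference. Of 83 genes tested, 8 rose and 10 fell in wild-type and 3 rose and 13 fell in *nhr-49*, with 2 and 8 shared. The rises are 9.64% and 3.61% of the list against 2.2% and 2.72% of all genes, and the falls 12% and 15.7% against 3.14% and 1.91%. The median response in this list was −0.20 for wild-type and −0.41 for *nhr-49*. The difference was above 0 for 27 of the 83, with a median of −0.29, of −0.24 and −0.21 in replicates 1 and 3 alone, and of −0.26 to −0.29 over the other fits with all libraries. At an unadjusted p under 0.05, 0 had a positive and 6 a negative difference, or 0% and 7.23% against 2.6% and 1.05%, among them *acs-7* and *acox-1*. Flavin monooxygenase genes number 5, of which *fmo-2* rose in wild-type and *fmo-4* in *nhr-49*. *fmo-4* was at 89.5 and 93.9 CPM without and 110 and 156 CPM with tBOOH in wild-type, and at 78.2 and 56.2 CPM without and 159 and 205 CPM with tBOOH in *nhr-49* (difference 0.90 ± 0.50). *fmo-1* was at 21.9 and 24.5 CPM without and 40.3 and 55.7 CPM with tBOOH in wild-type, and between 36.2 and 65.5 CPM in all 4 *nhr-49* libraries (difference −1.27 ± 0.61).

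The lists not yet described had medians of the difference between −0.73 and 0.50. The 6 yolk genes had the −0.73, which was −0.91 in replicate 1 and 1.29 in replicate 3, whose *nhr-49* libraries were low in yolk RNA, and none was called. F-box and MATH genes, with 149 tested, had a median of −0.33 that was 0.03 in replicate 1 and −0.50 in replicate 3, and their members with the smallest p, *fbxa-26* and *fbxc-36*, had 0 counts in both untreated *nhr-49* libraries. Neuropeptide genes, with 75 tested, had a median of 0.50, which was 0.23 in replicate 1 and 0.92 in replicate 3. Of these genes, 3 had a positive difference at an unadjusted p under 0.05, or 4% against 2.6% of all genes. C-type lectin genes, with 120 tested, had 6 rises and 14 falls in wild-type and 7 and 8 in *nhr-49*, 6 positive and 4 negative differences at that p, and a median of 0.06. The rises are 5% and 5.83% of the list against 2.2% and 2.72% of all genes, the falls 11.7% and 6.67% against 3.14% and 1.91%, and the differences 5% and 3.33% against 2.6% and 1.05%. *clec-3*, which overlaps C41H7.2, went from 11 and 16 to 22 and 21 counts in wild-type and from 0 in both libraries to 16 and 36 counts in *nhr-49*, at least 4.21-fold higher. Of 192 nuclear hormone receptor genes, 3 rose and 1 fell in wild-type and 7 rose and 2 fell in *nhr-49*, shares of 1.56%, 0.521%, 3.65% and 1.04% that are below or near those over all genes. *nhr-34* was at 34.3 and 31.4 CPM without and 57.5 and 52.9 CPM with tBOOH in wild-type against 35.4 to 58.4 CPM in the 4 *nhr-49* libraries. Of 32 histone genes, 3 fell in wild-type, or 9.38% against 3.14%, and 0 in *nhr-49*. Of 28 major sperm protein genes none was called, and their median difference was 0.09 in replicate 1 and 1.16 in replicate 3, whose untreated *nhr-49* library was low in sperm RNA. The plot of these medians shows the glutathione S-transferases, cuticle genes, heat shock and ribosomal genes to the right of all genes tested in both replicates. Cytochrome P450, neuropeptide, redox, proteasome and major sperm protein genes lie there too, with medians in replicate 1 below those of the former lists. With all 8 libraries, however, the redox median of −0.08 lies to the left of all genes tested.

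**Figure D5:**
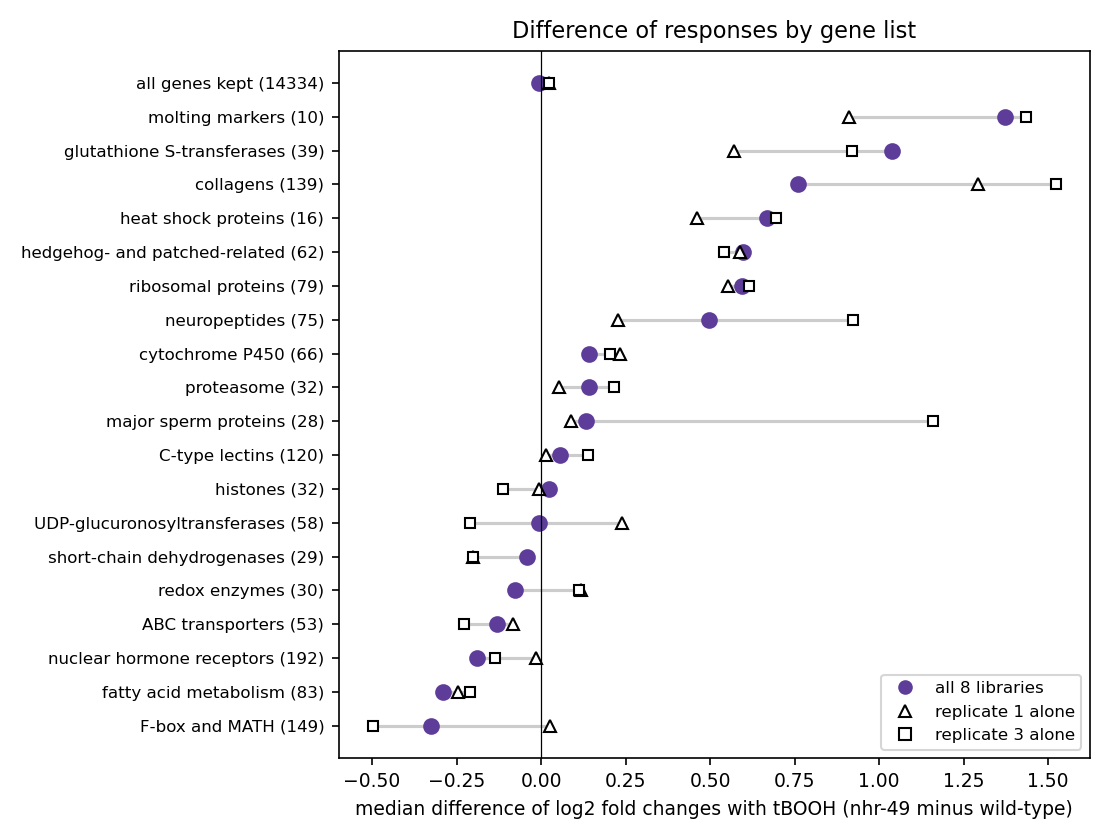
Median difference of the log2 fold changes with tBOOH, *nhr-49* minus wild-type (x axis), for gene lists with at least 10 genes tested (y axis, number of genes tested in parentheses). Filled circles use all 8 libraries, triangles replicate 1 alone and squares replicate 3 alone, and the gray line spans them. Collagens lie at 0.76, 1.29 and 1.52, fatty acid metabolism at −0.29, −0.24 and −0.21, and all genes tested at −0.01, 0.02 and 0.02.

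Among the genes that the study followed individually, the difference of responses ran from −0.75 for *sodh-1* to 1.86 for *gst-4* where both genotypes had counts. *fmo-2* went from 8 and 3 to 1606 and 727 counts in wild-type and had 0 in all 4 *nhr-49* libraries, so that it has no response there and no finite difference. *nlp-25*, a neuropeptide-like gene, likewise had 0 counts in *nhr-49*. In the quasi-likelihood test of edgeR the unadjusted p of the difference was 0.9996 for *fmo-2* and 0.9995 for *nlp-25*. That test thus does not show the loss of a rise where a genotype has 0 counts. In DESeq2 the adjusted p of the difference was 0.0705 for *fmo-2*. The SKN-1 targets *gst-4* and *gcs-1* had the larger fitted response in *nhr-49*. *gst-4* (WBGene00001752, chromosome IV), which overlaps *dhs-12*, rose from 30.6 and 42.0 to 267 and 311 CPM in wild-type and from 3.11 and 9.67 to 112 and 273 CPM in *nhr-49*, with a difference of 1.86 ± 0.78. Its *nhr-49* level was lower before tBOOH, and replicate 3 reached the wild-type range after it, while replicate 1 stayed below it. *gcs-1* (WBGene00001527, chromosome II), which encodes the catalytic subunit of the first enzyme of glutathione synthesis, was close in level before tBOOH, at 112 and 122 CPM in wild-type and 125 and 138 CPM in *nhr-49*. It rose to 396 and 366 CPM in wild-type and to 708 and 865 CPM in *nhr-49* (difference 0.88 ± 0.42). *gst-6* was at 36.1 and 32.4 CPM without and 21.1 and 20.1 CPM with tBOOH in wild-type, and at 44.0 and 57.7 CPM without and 63.5 and 59.9 CPM with tBOOH in *nhr-49* (difference 1.01 ± 0.50). For these 3 genes the unadjusted p of the difference was 0.0336, 0.0238 and 0.0280, and the adjusted p was 1, in the quasi-likelihood test of edgeR.

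*icl-1* (WBGene00001564, chromosome V), which encodes the glyoxylate cycle enzyme with isocitrate lyase activity, had a lower level in *nhr-49*. It was at 760 and 597 CPM without and 1985 and 2127 CPM with tBOOH in wild-type, where the response of 1.60 did not pass the test, and rose by 2.14 log2 units in *nhr-49*, from 272 and 70.3 to 840 and 665 CPM. The difference was 0.54 ± 0.73, or 0.24 and 1.41 in replicates 1 and 3 alone. As it was smaller than its SE, it does not show which genotype had the larger response. *sodh-1*, an alcohol dehydrogenase gene, rose in both genotypes, from 16.6 and 11.1 to 205 and 127 CPM in wild-type and from 3.63 and 1.12 to 16.6 and 15.6 CPM in *nhr-49*. All *nhr-49* libraries were below the wild-type libraries of the same treatment, while the difference of responses was −0.75 ± 0.78, with −1.46 in replicate 1 and 0.18 in replicate 3. K05B2.4 rose from 15 and 18 to 121 and 89 counts in wild-type and from 2 and 4 to 27 and 58 counts in *nhr-49* (difference 0.38 ± 1.03). *ptps-1*, which encodes a tetrahydropterin synthase, was called in neither genotype, with a difference of 1.28 ± 1.31. The SE of these 4 differences was between 0.73 and 1.31 log2 units, so that a 2-fold difference of responses would not have been detectable for them.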

How the data were processed

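The authors aligned single-end reads to ce10 with STAR and deposited raw counts per gene symbol. The counting program, annotation and use of strand are not given in the sources used here, so that overlapping genes cannot be separated. A deposited table of normalized values was not used. With R 4.3.3 and edgeR 4.0.16, dispersions were estimated from all 8 libraries. Responses were tested with the exact test and differences of responses with the quasi-likelihood test (4 residual and 4.61 prior degrees of freedom), each adjusted over 14334 genes. Fitted log2 fold changes come from the model of 4 groups, standard errors from DESeq2 1.42.0. Alternatives included limma 3.58.1. The tests were also run on simulated counts with the same spread in both genotypes, unlike these data, so that this run does not show their power here. Identifiers, matched for 12682 genes, come from WBcel235, so no coordinates are given. Named genes are those of the paper's text, the 10 smallest p in each direction, the 5 strongest falls in each genotype, and 2 members per list. The genes and lists were chosen with earlier results of these data known.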

Additional observations from a re-analysis of the deposited data

Results flagged for a closer look

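Of the 83 genes chosen by the rule for named genes and tested, 18 had both treated libraries above both untreated libraries in 1 genotype and below them in the other. Of these, 11 were lower with tBOOH in wild-type and higher in *nhr-49*. Their difference of responses was 1.01 for *gst-6*, 2.19 for *cyp-13A5*, 1.95 for C29F3.7, 3.72 for *dhs-23*, 0.86 for *hsp-4*, 1.22 for *prdx-2*, 0.92 for *pbs-4*, 0.70 for *rpn-11*, 1.0 for *rpl-21*, 1.12 for *flp-18* and 1.49 for *spe-10*. The other 7 were higher in wild-type and lower in *nhr-49*, with a difference of −3.65 for *tag-38*, −3.81 for C38C6.8, −2.63 for *acs-7*, −2.18 for F58F9.7, −3.20 for Y24D9A.9, −2.46 for ZC155.8 and −1.73 for *ugt-26*. Many of the 83 were chosen for a small p of the difference, which favors such patterns. None of these differences had an adjusted p under 0.05 in the quasi-likelihood test of edgeR, in which the lowest was 0.185, that of *tag-38*.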

How the results depend on the processing

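The number of differences called depended on the test, at 0 in the quasi-likelihood test, 6 positive and 5 negative in the likelihood ratio test, 10 and 6 in DESeq2, and 97 and 16 without the filter on low counts, where the prior degrees of freedom of edgeR became infinite and 16 of the calls were collagen genes. At an unadjusted p under 0.05 the counts were 628 and 229 without the filter, 242 negative in the likelihood ratio test and 95 in DESeq2. DESeq2 called 1 gene in opposite directions and gave a median of −1.10 in *nhr-49* for genes lower in wild-type. The quasi-likelihood test called 103 genes higher and 130 lower in wild-type, 139 and 79 in *nhr-49*, and 64 and 46 in both, with medians in the genotype not used to choose of 2.37 and −1.74 in *nhr-49* and 1.84 and −1.88 in wild-type. With limma-voom the counts were 816 and 1002 in wild-type, 22 and 8 in *nhr-49*, and 22 and 8 in both, with medians of 0.94 and −0.89 in *nhr-49* and 2.79 and −2.20 in wild-type. Thinned counts gave 186 and 297 calls in wild-type, 111 higher in both, and a median of 1.68 in wild-type for genes higher in *nhr-49*. The causes of these shifts were not tested. The labels give groups the same 2 replicate numbers, but deviations from the group means correlated between −0.04 and 0.47 for the same number, and nothing says that a number marks a shared culture. A replicate block in the quasi-likelihood test called 0 differences, and 248 and 217 genes in *nhr-49*.

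Leaving out a replicate moved the median in *nhr-49* of genes lower in wild-type between −1.44 and −1.25, and that in wild-type of genes higher in *nhr-49* between 1.32 and 1.55. The difference of responses changed sign in 1 replicate alone for K05B2.4 (−0.054 and 0.68), *sodh-1* (−1.46 and 0.18), K09C4.5 (0.97 and −0.79), *unc-22* (0.21 and −0.95), *vit-4* (−1.45 and 1.35) and *vit-5* (−1.0 and 1.71), and against the full fit in both for *lbp-8* (0.21 and 1.26). It also changed sign with limma-voom for *lbp-8* (0.66), *vit-4* (0.13) and *vit-5* (0.51), in thinned counts for K09C4.5 (−0.53) and *lbp-8* (2.15), and with a prior count of 2 for K09C4.5 (−0.042) and *lbp-8* (1.10). No other named gene changed sign. With 2 libraries per group, a median standard error of 0.614 log2 units and wider spread in *nhr-49*, small differences were not detectable. The quasi-likelihood test of edgeR called none of the larger ones either, such as the 2.76 of *gst-5* or the −3.65 of *tag-38*. The smallest difference it could detect was not measured.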
